A study of Mus musculus with 3 samples.

Results

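Small nucleolar RNAs (snoRNAs), small Cajal body-specific RNAs (scaRNAs) and the long noncoding transcripts that carry snoRNAs in their introns were followed in c2c12 cells, an immortalized mouse myoblast line, on 3 culture substrates. The members were taken by gene symbol: Snora for box H/ACA RNAs, Snord for box C/D RNAs, Scarna for scaRNAs, and Snhg together with Gas5 for host transcripts. This gave 135 of the 23238 symbols in the files, with 36 box H/ACA RNAs, 74 box C/D RNAs, 9 scaRNAs and 16 host transcripts. Cells were kept for 2 days in myogenic induction medium with horse serum on 1 of 3 surfaces: tissue culture plate (TCP), a hydrogel of methacrylated gelatin at 15% w/v (GelMA), or the same hydrogel mixed with 1% poly sodium 4-styrenesulfonate, a sulfonated polymer (GelMA-PSS). The comparison of GelMA-PSS with both controls addresses the effect of this polymer on differentiating myoblasts. All 3 groups are the same unmodified cell line, and 1 library was sequenced per substrate. No difference below therefore has a replicate check or a p-value, and the difference between GelMA and TCP is given as the yardstick.

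Box C/D RNAs guide the methylation of the ribose in ribosomal RNA and box H/ACA RNAs guide the conversion of uridine to pseudouridine, each by base pairing with its target and each bound to its own set of core proteins. In mammals most snoRNAs lie in introns of genes transcribed by RNA polymerase II and are trimmed out of the excised intron, and many of these host genes encode ribosomal proteins or translation factors. Some hosts, such as Gas5 and the Snhg genes, make spliced and polyadenylated transcripts with little coding capacity, several of which are degraded during translation. Mature snoRNAs carry no poly(A) tail.

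Total RNA was isolated, and the libraries were made with a TruSeq RNA kit by the study's methods and a SMARTER mRNA kit by the labels. Whether polyadenylated RNA, which mature snoRNAs are not, was selected in this step was not tested. By the annotation, 63 of the 74 box C/D RNAs but 0 of the 36 box H/ACA RNAs are shorter than 100 bases, about the length of a read. The total counts were between 87071144 for GelMA and 192171443 for GelMA-PSS. The myogenic markers were present in each library, with 133929, 81314 and 187779 counts of Myog on TCP, GelMA and GelMA-PSS. Of 6 markers of other cell types, 5 had at most 13 counts in any library, and the keratin gene Krt14 had 492, 225 and 524 counts. Myh3, the embryonic myosin heavy chain, was the only myogenic marker of 8 past 2-fold against both controls, at a CPM, the count scaled to library size, of 10182, 6355 and 3037. In RNA from whole cultures, fewer cells of a type and less RNA per cell cannot be told apart.

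The letters that define the classes were looked up in the annotated sequences (GENCODE vM21, GRCm38), which were found for 118 of the 119 small RNAs. In box H/ACA RNAs the letters ACA stand near the 3′ end, and 34 of 36 members (94.4%) had ACA within the last 7 bases, against 15.3% of 2202 annotated miRNA hairpins. In box C/D RNAs the C box was searched as TGATGA in the first 25 bases and the D box as CTGA in the last 20, on the transcribed strand, and 44 of 73 members (60.3%) had both, against 0 of 36 box H/ACA RNAs. The sequences of the box H/ACA RNAs with the most counts and with the largest increase, Snora31 and Snora69, are shown first, with ACA in capitals. They lie at chr14:75847905-75848034 on the plus strand and chrX:37082912-37083042 on the minus strand.
Snora31: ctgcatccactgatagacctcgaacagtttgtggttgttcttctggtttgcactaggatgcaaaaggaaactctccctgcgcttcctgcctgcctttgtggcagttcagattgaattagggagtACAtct
Snora69: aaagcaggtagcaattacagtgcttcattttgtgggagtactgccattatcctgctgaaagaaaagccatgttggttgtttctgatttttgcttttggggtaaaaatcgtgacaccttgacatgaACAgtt

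Among box C/D RNAs, Snord100 had the most counts, and Snord49a, Snord49b and Snord65 lie in introns of 1 noncoding host gene. Snord15a and Snord15b lie in 1 ribosomal protein gene and are 66.0% identical over an alignment of 162 positions. Capitals mark the C box and the D box. Snord100 is at chr10:23785750-23785823 on the minus strand, Snord49b at chr11:62603079-62603150, Snord49a at chr11:62603450-62603521 and Snord65 at chr11:62604515-62604586 on the plus strand, Snord15a at chr7:99482785-99482932 and Snord15b at chr7:99479563-99479707 on the minus strand.
Snord100: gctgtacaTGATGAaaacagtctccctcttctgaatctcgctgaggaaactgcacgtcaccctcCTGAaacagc
Snord49a: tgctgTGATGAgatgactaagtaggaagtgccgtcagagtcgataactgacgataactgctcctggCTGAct
Snord49b: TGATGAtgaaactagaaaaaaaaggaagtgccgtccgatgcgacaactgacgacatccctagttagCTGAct
Snord65: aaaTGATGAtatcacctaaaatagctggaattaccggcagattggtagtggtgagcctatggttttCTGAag
Snord15a: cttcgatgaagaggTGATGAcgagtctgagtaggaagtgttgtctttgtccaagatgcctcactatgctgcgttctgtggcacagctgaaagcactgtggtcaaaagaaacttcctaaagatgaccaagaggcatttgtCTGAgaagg
Snord15b: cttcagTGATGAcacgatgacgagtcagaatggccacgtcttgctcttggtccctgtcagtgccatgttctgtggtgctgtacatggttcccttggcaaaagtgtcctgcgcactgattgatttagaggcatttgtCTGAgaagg

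The members took a larger share of the GelMA-PSS library than of either control. Their counts summed to 0.282% of all counts on TCP, 0.309% on GelMA and 0.518% on GelMA-PSS. The box H/ACA RNAs took 0.131%, 0.143% and 0.252%, the box C/D RNAs 0.134%, 0.147% and 0.239%, and the host transcripts 0.0165%, 0.0184% and 0.0265%. The scaRNAs did not share this order, with 0.000541%, 0.000565% and 0.000490%. Counts were then scaled to CPM with TMM factors, which correct each library total for a few abundant genes, and ratios were taken as differences of log2(CPM + 1), a scale that understates the change of genes with few counts. A symbol was tested when its CPM reached 1 in any library, which held for 13169 symbols and 103 members: 29 box H/ACA RNAs, 59 box C/D RNAs, 2 scaRNAs and 13 host transcripts. The other 32 members had at most 156 counts in any library, and 5 of them, Snora35, Snord14c, Snord14d, Snord116 and Snord116l2, had 0 counts in all 3 libraries, which allows up to 3 counts, or a CPM of 0.0246, 0.0330 and 0.0166.

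On GelMA-PSS, 83 of the 103 members had a higher CPM than in both control libraries and 17 had a lower one. That is 80.6% and 16.5% of the members, where 45.3% and 39.3% of all genes tested were higher and lower than both. The filter favours such counts where a CPM of 1 was reached on GelMA-PSS only, as for Snord104 (0.632, 0.858 and 1.48 CPM on TCP, GelMA and GelMA-PSS) and Snora74a (0.526, 0.946 and 1.09 CPM). Members under the filter went both ways, with Snord14a and Scarna3b lower and Snhg10 and Snora17 higher than both controls. After a correction of the ratios for transcript length, described with the length values below, 46 of 101 members were higher and 46 were lower than both. Members make up 90 of the 148 tested genes with transcripts under 400 bases, so this correction rests in part on their own values. Past 2-fold against both controls, 14 members were higher and 0 were lower, where 1.37% of all genes tested were higher and 1.16% lower. The 14 were 5 box H/ACA RNAs (Snora7a, Snora21, Snora31, Snora33 and Snora69), 7 box C/D RNAs (Snord12, Snord15a, Snord42b, Snord49a, Snord49b, Snord65 and Snord100) and the host transcripts Snhg3 and Snhg8. Against GelMA alone, 84 members were higher at all, 14 by more than 2-fold, and 0 lower by more than 2-fold, where the shares of all genes tested were 53.1%, 1.77% and 2.33%. Against TCP alone these were 85, 27 and 0 members, where the shares of all genes were 52.8%, 3.72% and 3.13%. Just inside the threshold lay Snhg3, whose smaller log2 ratio, that to GelMA, was 1.01, and just outside it Snord32a, with 0.95. Between the control substrates 70 members were higher on GelMA than on TCP, where 48.3% of all genes were, and 0 members passed 2-fold in either direction, where 0.706% of all genes tested were higher and 0.296% lower on GelMA than on TCP.

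**Figure D1:**
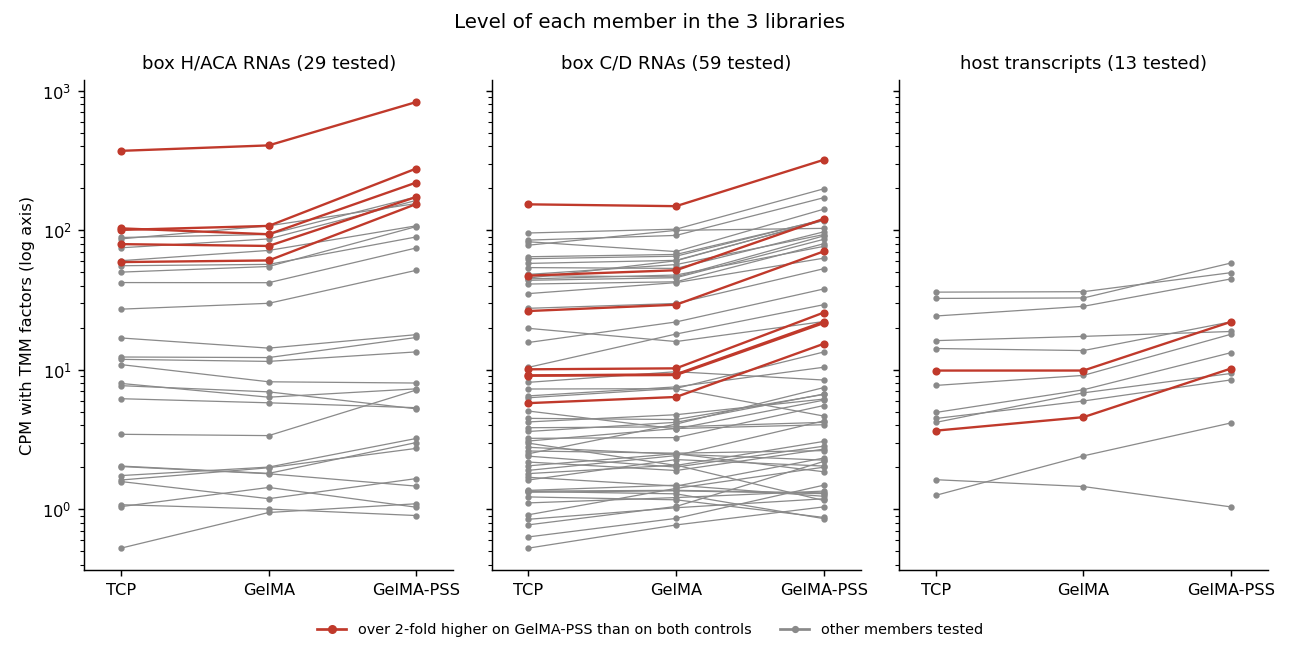
CPM on a log axis in the TCP, GelMA and GelMA-PSS libraries for each of the 29 box H/ACA RNAs, 59 box C/D RNAs and 13 host transcripts tested, with 1 line per member and 1 library per point. The 14 members over 2-fold higher on GelMA-PSS than on both controls are in red, and between TCP and GelMA their levels differ by 0.907-fold (Snora21) to 1.25-fold (Snhg3).

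Box H/ACA RNAs had a median log2 ratio of 0.51 for GelMA-PSS against GelMA and 0.62 against TCP, and of -0.00 for GelMA against TCP, where the medians of all genes tested were 0.03, 0.04 and -0.01. Of the 29 tested, 22 were higher on GelMA-PSS than on both controls and 6 were lower. Snora31, whose host Tpt1 encodes the translationally controlled tumour protein, had 371 CPM on TCP, 406 CPM on GelMA and 830 CPM on GelMA-PSS. The GelMA-PSS library was thus highest, at 2.05-fold the GelMA level (95% interval 2.02 to 2.07) and 2.24-fold the TCP level (2.21 to 2.26). These intervals are exact and cover counting error only, and counting of both mates of a pair would make them too narrow.

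Snora69, in the ribosomal protein gene Rpl39, showed the largest increase of its class, with 101, 107 and 277 CPM on TCP, GelMA and GelMA-PSS. Its fold was 2.58 (2.52 to 2.64) against GelMA and 2.75 (2.70 to 2.81) against TCP. Snora7a, in Rpl32, had 59.1, 60.7 and 154 CPM in the same order. For Snora7a the control libraries differed by 1.03-fold, and GelMA-PSS was 2.54-fold above GelMA and 2.61-fold above TCP. Snora33, in Rps12, had 79.5, 77.1 and 173 CPM, and Snora21, in Rpl23, had 103, 93.6 and 220 CPM. Both were thus over 2-fold above each control, while the controls differed by 0.97-fold and 0.907-fold. Snora70 (Rpl10) and Snora64 (Rps2) were also among the 5 box H/ACA RNAs with the highest CPM, and did not reach 2-fold. Snora64 differed between the controls as well, at 86.7 CPM on TCP, 108 on GelMA and 155 on GelMA-PSS. The largest decreases were smaller than these increases. Snora19, in the translation initiation factor gene Eif3a, had 7.68, 6.93 and 5.24 CPM, Snora23, in the importin gene Ipo7, had 2.02, 1.79 and 1.46 CPM, and Snora2b, in Kansl2, had 6.19, 5.79 and 5.34 CPM.

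Box C/D RNAs had median log2 ratios of 0.57 and 0.65 for GelMA-PSS against GelMA and TCP, and of 0.07 between the controls. Of the 59 tested, 48 were higher on GelMA-PSS than on both controls and 9 were lower. Snord100, which lies in Rps12 as Snora33 does, had 153, 149 and 319 CPM on TCP, GelMA and GelMA-PSS, which was 2.15-fold (2.11 to 2.19) above GelMA and 2.08-fold (2.05 to 2.12) above TCP. The largest increases were those of Snord12, Snord15a and Snord42b. Snord12 lies in the noncoding host 1500012F01Rik and had 10.1, 10.2 and 25.7 CPM. Snord15a, in Rps3, had 26.3, 29.2 and 70.4 CPM, and Snord42b, in Rpl23a, had 47.3, 51.6 and 121 CPM. In all 3 cases GelMA-PSS stood apart from control libraries that differed by at most 1.11-fold.

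The 3 RNAs of the noncoding host 2410006H16Rik moved alike. Snord49a had 9.06, 9.16 and 21.6 CPM, Snord49b had 9.09, 9.27 and 22.0 CPM, and Snord65 had 5.76, 6.37 and 15.3 CPM. Their host was at 57.7, 60.0 and 145 CPM, and these RNAs share 1 transcript and are not independent of each other. Snord4a and Snord42a (Rpl23a) and Snord37 were also among the box C/D RNAs with the highest CPM. Snord4a had 95.5, 102 and 198 CPM, and Snord42a had 84.9, 91.8 and 171 CPM. Of these 3, Snord37, in the translation elongation factor gene Eef2, differed most between the controls, with 78.1, 99.8 and 103 CPM, so that GelMA-PSS was 1.03-fold above GelMA and 1.32-fold above TCP.

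Lower values on GelMA-PSS were found for Snord66, Snord98 and Snord91a, the 3 largest decreases among box C/D RNAs. Snord66, in the translation initiation factor gene Eif4g1, had 7.27 CPM on TCP, 7.31 on GelMA and 4.65 on GelMA-PSS, which was 0.637-fold the GelMA level (0.575 to 0.706). Snord98, in the transcriptional coregulator gene Ccar1, had 1.80, 2.07 and 1.15 CPM, and Snord91a, in Tsr1, had 1.34, 1.29 and 0.856 CPM. All 16 tested small RNAs that were lower on GelMA-PSS than in both controls lie in protein-coding genes other than ribosomal protein genes. They were 6 box H/ACA RNAs, 9 box C/D RNAs and the scaRNA Scarna6. Below the filter, Snord14a, in the ribosomal protein gene Rps13, was also lower than both, at 0.534, 0.484 and 0.359 CPM.

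Host transcripts had medians of 0.63 against GelMA and 0.86 against TCP, and of 0.21 between the controls. The order of the classes depended on the filter: at a CPM of 5 the medians were 0.65 and 0.86 for hosts, 0.81 and 0.93 for box C/D RNAs and 0.77 and 0.83 for box H/ACA RNAs. Of the 13 tested, 12 were higher on GelMA-PSS than on both controls, and Snhg14 was lower. Snhg8 had 9.85 CPM on TCP, 9.86 on GelMA and 22.0 on GelMA-PSS, and Snhg3 had 3.65, 4.57 and 10.2 CPM. For Snhg8 the controls were level, and the fold of GelMA-PSS was 2.24 (2.08 to 2.41) against GelMA, whereas for Snhg3 the fold was 2.23 (2.00 to 2.49) against GelMA and 2.79 (2.51 to 3.10) against TCP, and GelMA lay 1.25-fold above TCP. Snhg6 had 7.71, 9.10 and 18.0 CPM, and its log2 ratio was 0.91 relative to GelMA and 1.12 relative to TCP. Gas5, a transcript named for its accumulation in growth-arrested cells, had the most counts on TCP, at 36.0, 36.2 and 49.6 CPM, so that GelMA-PSS was 1.37-fold (1.32 to 1.43) above GelMA. Snhg1 had 32.4, 32.7 and 58.2 CPM, Snhg5 had 24.3, 28.5 and 44.8 CPM, and Snhg12 had 14.2, 13.7 and 22.0 CPM. Snhg17 had 16.2, 17.3 and 18.8 CPM, a difference between GelMA-PSS and GelMA about as large as that between the controls, with log2 ratios of 0.11 and 0.10. Snhg7 (1.26, 2.41 and 4.15 CPM), Snhg20 (4.19, 6.82 and 9.40 CPM) and Snhg18 (4.94, 7.17 and 13.2 CPM), which were named after their values were seen, lay higher on GelMA than on TCP by log2 ratios of 0.60, 0.59 and 0.46. Snhg14, a long transcript of the imprinted Prader-Willi region, had 1.63, 1.45 and 1.04 CPM. The transcript taken for it has 6861 bases, and after the length correction its log2 ratios were 0.23 against GelMA and -0.001 against TCP. Of the small RNAs inside Snhg14, Snord64 had 1, 7 and 5 counts and Snord116l1 had 1, 0 and 0.

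The start sites of the hosts were read in RefSeq promoter sequences (GRCm38.p6), since ribosomal protein mRNAs and several snoRNA hosts are known to begin with a C inside a run of pyrimidines. A run of at least 5 pyrimidines that begins with C at the annotated start was found in 3 of 14 hosts with an entry (21.4%), in 14 of 67 ribosomal protein genes (20.9%) and in 2.82% of 18088 genes. These hosts were Gas5, Snhg7 and Snhg8, and their starts are shown with the first 20 transcribed bases in capitals, from chr1:161034916-161035215 (plus strand), chr2:26640195-26640494 (minus strand) and chr3:123508287-123508586 (minus strand). For Gas5 this is 1 of 2 annotated starts, and the other does not begin with a C.
Gas5: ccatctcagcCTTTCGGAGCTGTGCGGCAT
Snhg7: gatgctcggcCTCTCGGCAGCCATGGCGGC
Snhg8: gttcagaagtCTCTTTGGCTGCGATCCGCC
An annotated start that is off by a few bases would hide such a run. The log2 ratios of these hosts against GelMA were 0.44, 0.60 and 1.09, inside the range of the other hosts except for Snhg8, which was the highest.

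The scaRNAs, which guide the modification of spliceosomal RNAs in Cajal bodies, were low in each library. Scarna3a, in Rfwd2, had 286, 226 and 503 counts, or 2.35, 2.49 and 2.78 CPM, and Scarna6, in Atg16l1, had 163, 106 and 183 counts, or 1.34, 1.17 and 1.01 CPM. They lay on either side of the controls, with log2 ratios against GelMA of 0.12 and -0.11. The other 7 scaRNAs were below a CPM of 1 throughout, among them Scarna3b with 103, 87 and 95 counts, Scarna10 with 41, 31 and 57, and Scarna8 with 13, 15 and 45. The RNA components of RNase MRP and RNase P, which have genes of their own, were also low, with 66, 62 and 40 counts of Rmrp and 40, 41 and 29 counts of Rpph1. Among the listed short noncoding RNAs outside the symbol rule, the only one that reached a CPM of 1 was Rnu73b. It had 85.2, 82.6 and 155 CPM and log2 ratios of 0.90 and 0.86 to GelMA and TCP. No host gene was looked up for Rnu73b, and whether it is a snoRNA under another symbol was not tested.

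The kind of host gene separated the small RNAs further than their class did. By annotation on the same strand, a host in the files was found for 112 of the 119 small RNAs. The 31 tested small RNAs inside cytosolic ribosomal protein genes had medians of 0.89 on the log2 scale with GelMA as the control and 1.00 with TCP, and all 31 were higher on GelMA-PSS than on both controls. Of the 32 listed there, the only one below the filter, Snord14a, was lower than both, with 65, 44 and 65 counts. The 15 tested inside noncoding genes had medians of 0.63 and 0.85, and all 15 were higher than both controls. The 41 inside other protein-coding genes had medians of 0.08 and 0.05, close to those of all genes tested, with 22 higher and 16 lower than both controls. Within ribosomal protein genes the medians against GelMA were 0.91 for 11 box H/ACA RNAs and 0.89 for 20 box C/D RNAs, and within other protein-coding genes they were 0.17 for 13 box H/ACA RNAs and 0.07 for 26 box C/D RNAs. Of the 12 small RNAs past 2-fold against both controls, 7 lie in ribosomal protein genes, 4 in noncoding genes and 1, Snora31, in another protein-coding gene.

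**Figure D2:**
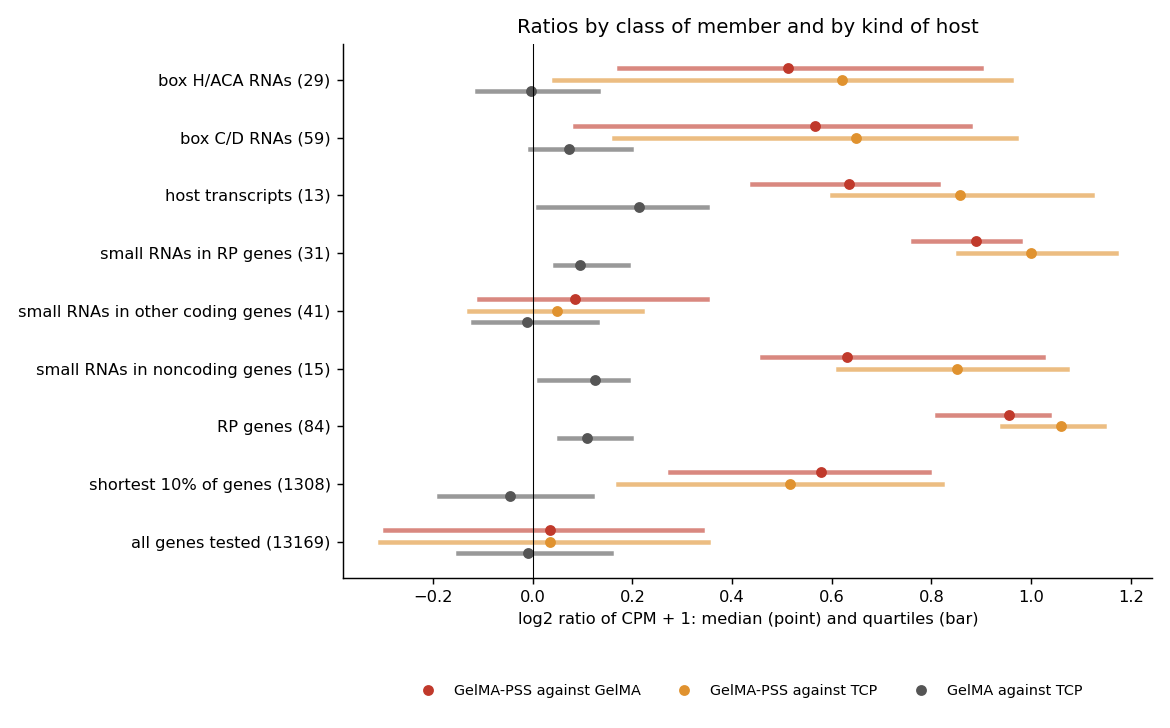
Median (point) and quartiles (bar) of the log2 ratio of CPM + 1 for GelMA-PSS against GelMA, GelMA-PSS against TCP and GelMA against TCP, by class of member, by kind of host gene and for comparison groups, with the number tested in brackets. Small RNAs in ribosomal protein (RP) genes had medians of 0.89 and 1.00 in the comparisons with GelMA-PSS and those in other coding genes 0.08 and 0.05, while all medians between the controls lay between -0.05 and 0.21.

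The hosts themselves were ordered in the same way. All 84 tested ribosomal protein genes were higher on GelMA-PSS than on both controls, with medians of 0.96 and 1.06. The 23 of them that hold a small RNA had medians of 0.94 and 1.06, and the 61 that hold none had 0.96 and 1.05. Protein-coding hosts that are not ribosomal protein genes had medians of -0.00 and 0.03, with 18 of 41 higher and 17 lower than both controls. Among the 64 protein-coding hosts tested, those higher by more than 2-fold against both controls were the ribosomal protein genes Rpl17, Rpl23, Rpl27a, Rpl32, Rpl39 and Rps12 and, outside this family, Tpt1, at 4752 CPM on TCP, 5047 on GelMA and 10633 on GelMA-PSS. Srcap, a chromatin remodelling ATPase gene and host of Snora30, was the only host lower by more than 2-fold, at 67.5, 91.4 and 32.0 CPM.

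Each small RNA was then set beside its own host. In 87 pairs of 63 hosts the log2 ratio of the small RNA differed from that of its host by a median of -0.04 relative to either control and by 0.01 between the controls. The difference was within 0.25 on the log2 scale in 77, 77 and 81 of the 87 pairs and within 0.5 in 87, 87 and 86. Across pairs, Spearman's rho between the ratios of small RNA and host was 0.95 with GelMA as the control, 0.94 with TCP as the control and 0.69 between the controls. These correlations are a description, since pairs share libraries, scaling and in part hosts, and small RNAs that overlap a host exon may share reads with the host. Small RNAs in noncoding genes lay slightly below their hosts, with a median difference of -0.16 against GelMA and 15 of 15 pairs below 0, on a scale that understates the change of the member with fewer counts. The median log2 change of their share of the host's count was -0.03. For example, Snord22, in Snhg1, had log2 ratios of 0.62 and 0.63 and its host 0.81 and 0.82, and Snord87, in Snhg6, had 0.63 and 0.87 where its host had 0.91 and 1.12.

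**Figure D3:**
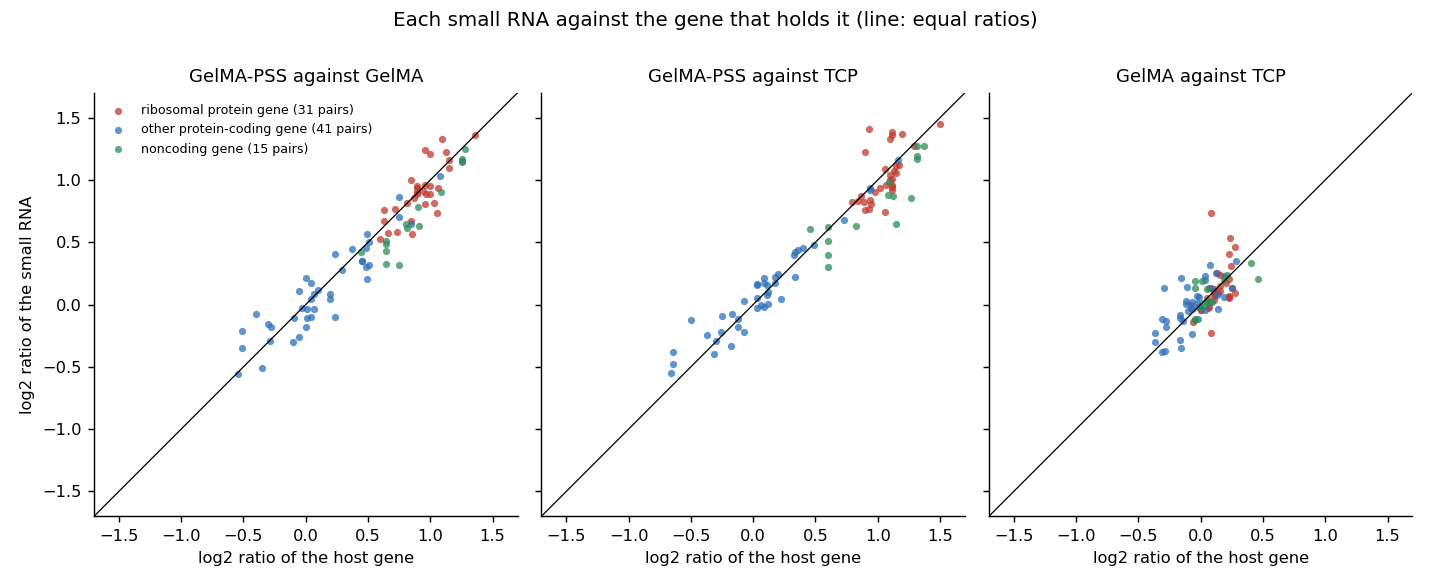
Log2 ratio of each small RNA against that of the gene that holds it, for 87 pairs in the 3 comparisons, coloured by kind of host, with the line of equal ratios. In both comparisons with GelMA-PSS the points follow the line from about -0.5 to 1.5 with all 87 pairs within 0.5 of it, and between the controls 86 of 87 do, with ratios of the small RNAs from -0.38 to 0.74.

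The count of a small RNA as a percent of its host's count needs no scaling between libraries. In 83 pairs with at least 100 counts of both in each library, the median was 5.20% on TCP, 5.17% on GelMA and 4.97% on GelMA-PSS. By kind of host the medians were 7.73%, 7.55% and 8.12% in ribosomal protein genes, 2.77%, 2.96% and 2.73% in other protein-coding genes and 13.6%, 14.5% and 13.5% in noncoding genes. The 3 libraries thus differed far less than the kinds of host did. Snora31 was at 7.80%, 8.04% and 7.81% of the count of Tpt1, Snora69 at 26.2%, 25.4% and 25.5% of Rpl39, and Snora24 at 34.9%, 34.2% and 32.4% of Snhg8. The counts of these small RNAs changed between libraries and their shares hardly did. In Gas5 the share of Snord47 was 18.0% on TCP, 20.8% on GelMA and 21.0% on GelMA-PSS. Snhg12 holds 4 small RNAs with counts, and Snora16a had 12.3%, 14.6% and 14.6% of the host's count, Snora44 11.4%, 14.4% and 12.4%, Snora61 14.4%, 13.2% and 13.6%, and Snord99 11.9%, 10.7% and 10.5%.

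**Figure D4:**
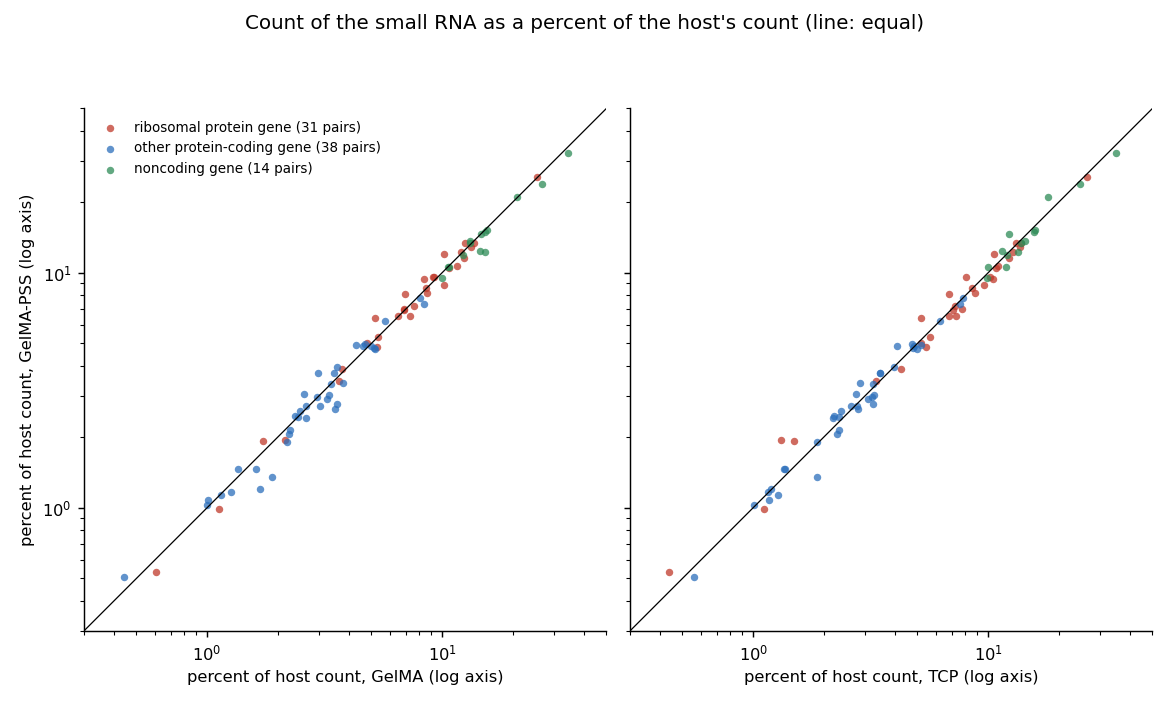
Count of each small RNA as a percent of its host's count on GelMA-PSS (vertical) against GelMA (left) and TCP (right), both on log axes, for 83 pairs coloured by kind of host, with the line of equal shares. Shares range from 0.505% to 32.4% on GelMA-PSS, and no pair lies more than 1.5-fold from the line in either panel.

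Shares that differed by more than 1.5-fold were found in 0 of 83 pairs when GelMA-PSS was set against either control. Differences larger than counting error alone were more frequent: against GelMA, 16 shares were higher and 22 lower on GelMA-PSS, against TCP 12 and 22, and between the controls 19 and 15. The yardstick comparison thus gave about as many. Snord15a and Snord15b, which were shown above, parted within 1 host. On TCP and GelMA both were near 5%, at 5.20% and 5.17% for Snord15a and 5.44% and 5.28% for Snord15b, and on GelMA-PSS they were at 6.41% and 4.81%. The log2 change of the share against GelMA was 0.31 (95% counting interval 0.25 to 0.37) for Snord15a and -0.13 (-0.20 to -0.07) for Snord15b, with 12761 and 9588 counts on GelMA-PSS. How the authors' counting assigned reads of these 2 RNAs, which are 66.0% identical, was not tested. Snora7a and Snord42b, both past 2-fold, also had their highest shares on GelMA-PSS, with 10.6%, 10.1% and 12.1% for Snora7a and 6.83%, 6.94% and 8.12% for Snord42b on TCP, GelMA and GelMA-PSS.

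Hspa8, which encodes a constitutive heat shock protein, was an abundant host without counts of its small RNAs. It had 336353, 240022 and 577005 counts, while Snord14c and Snord14d in its introns, at chr9:40803583-40803668 and chr9:40803995-40804080 on the plus strand, had 0 counts in each library. These RNAs are 97.7% identical, with 84 of 86 aligned bases the same, and both hold a C box and a D box (capitals).
Snord14c: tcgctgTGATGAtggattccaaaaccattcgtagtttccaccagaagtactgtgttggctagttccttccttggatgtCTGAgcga
Snord14d: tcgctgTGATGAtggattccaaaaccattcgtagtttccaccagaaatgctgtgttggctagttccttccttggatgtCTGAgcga
Snord14a, which is 78.5% identical to Snord14c, had 65, 44 and 65 counts. Its host Rps13 was also abundant, with 30700, 27352 and 99454 counts. Whether the authors' alignment left out reads that match both Snord14c and Snord14d was not tested.

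The share followed the length of the host transcript, with a Spearman's rho of -0.81 over the 83 pairs on TCP, as a description. Per base of its own length a small RNA had a median of 86.4% of the counts per base of the host transcript on TCP, 86.3% on GelMA and 83.1% on GelMA-PSS. This value was 66.4% for 27 box H/ACA RNAs and 95.9% for 54 box C/D RNAs on TCP, although the former are longer, with a median length of 132 against 79.5 bases. Expressed as the length of host transcript that holds as many counts, both classes were closer, at 85.0 bases (quartiles 69.6 and 131) for box H/ACA RNAs and 72.4 bases (61.6 and 89.9) for box C/D RNAs. These lengths depend on the 1 transcript chosen per host. The rule by which reads were assigned to overlapping features is not given in the sources used here, and whether host reads spliced across the intron were counted for the small RNA inside it was not tested. The values are therefore counts assigned to the symbols of the small RNAs, and not a measure of the mature RNAs.

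The genes for proteins that bind or process small RNAs were read against the 45.3% of all genes tested that were higher and the 39.3% that were lower on GelMA-PSS than on both controls. Of 11 genes for the core and assembly proteins of box C/D particles, all 11 were higher on GelMA-PSS than on both controls, with medians of 0.46 and 0.32 and 0 past 2-fold. Fbl, the methyltransferase fibrillarin, had 62.1, 59.3 and 84.9 CPM, and Nop58, a scaffold of the particle and itself a host of Snord11 and Snord70, had 92.3, 76.0 and 104 CPM. Of 6 genes for box H/ACA particles, 5 were higher and 1 lower than both controls. Dkc1, the pseudouridine synthase dyskerin, had 29.5, 28.0 and 31.0 CPM, and Nop10, a small core protein, had 22.2, 22.9 and 38.7 CPM. Among 20 genes for the release and trimming of intronic RNAs, 15 were higher and 3 lower than both controls, with 0 past 2-fold against both, and Dbr1, which opens intron lariats, had 10.5, 11.4 and 12.1 CPM. Of 15 genes for nonsense-mediated decay, the route that degrades spliced Gas5 and some Snhg transcripts, 4 were higher and 8 lower, again with 0 past 2-fold against both. Among the 8 lower, the helicase gene Upf1 had 86.4, 85.8 and 59.0 CPM and the kinase gene Smg1 had 104, 140 and 56.4 CPM. The 4 higher were Magoh, with 42.3, 40.1 and 85.1 CPM, Rbm8a, with 109, 95.9 and 152 CPM, Upf3a and Eif4a3. Of 4 Cajal body genes, 3 were higher and 1 was lower than both controls. Median transcript lengths were 2077 bases for the box C/D list, 2037.5 for the box H/ACA list and 3218 for the decay list. Among all tested genes binned by length, the bin with a median of 1984 bases had median ratios of 0.25 to GelMA and 0.18 to TCP. The bin at 3118 bases had 0.02 and -0.01. What part length has in these lists was not tested.

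Transcript length moved with these ratios over all genes. Spearman's rho between length and the log2 ratio was -0.66 with GelMA as the control, -0.51 with TCP as the control and 0.20 between the controls over 13054 genes, as a description. The shortest 10% of genes, a group that includes the small RNAs, had medians of 0.58 and 0.52, near those of the small RNAs alone. Of this group 78.8% were higher on GelMA-PSS than on both controls, where 78.9% of the 90 small RNAs tested were. Without any members, the 2304 other genes with transcripts of 400 to 1600 bases had medians of 0.47 and 0.40, and 78.8% were higher than both. The 58 other tested genes with transcripts under 400 bases had medians of 0.45 and 0.44. The 0.08 and 0.05 of small RNAs inside other protein-coding genes lay below these values, and the 0.89 and 1.00 of those inside ribosomal protein genes above them. After subtraction of a loess fit on length, 0 of 101 members were higher by more than 2-fold than both controls and 2, Snord66 and Snord98, were lower. Over the 13054 genes so corrected, 64 were higher and 90 were lower by this rule. The medians against GelMA and TCP were then 0.28 and 0.36 for small RNAs in ribosomal protein genes, 0.02 and 0.21 in noncoding genes and -0.53 and -0.57 in other protein-coding genes. What part length has in the differences of the members was not tested, and the correction takes the length of the small RNA and not that of its host. It also rests in part on the values of the members, which are 90 of the 148 tested genes with transcripts under 400 bases.

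**Figure D5:**
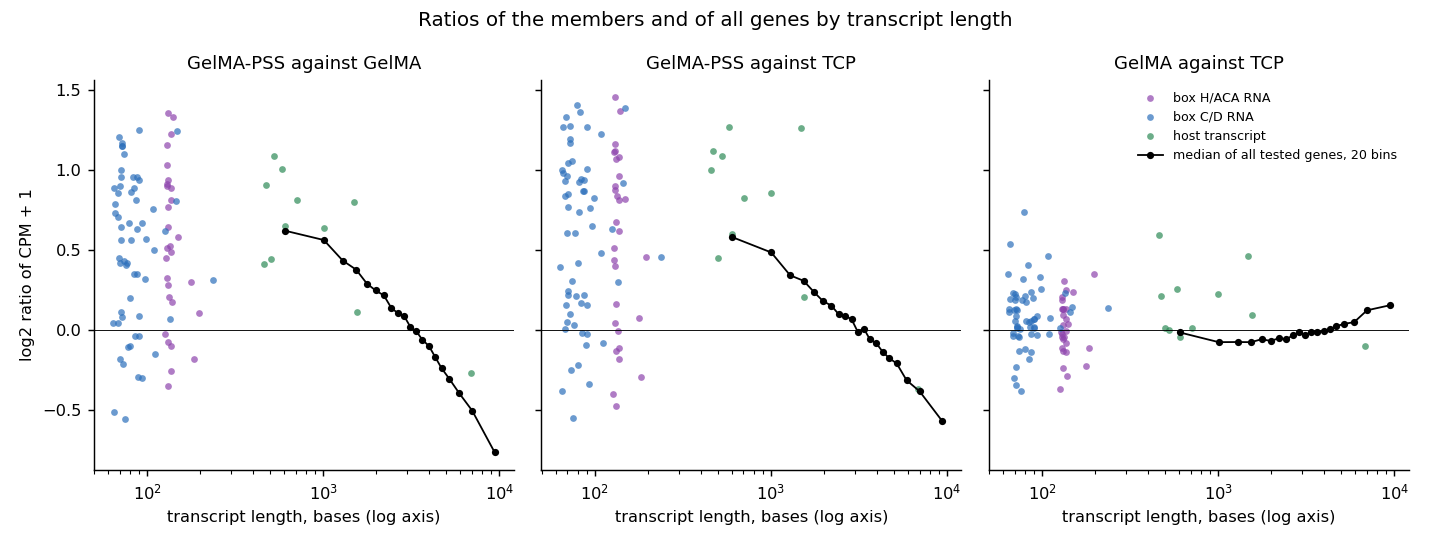
Log2 ratio of CPM + 1 against transcript length on a log axis for the members (points, by class) and for all tested genes (line, medians of 20 bins by length), in the 3 comparisons. In both comparisons with GelMA-PSS the line runs from about 0.6 at the shortest bin to below -0.5 at the longest. The box H/ACA and box C/D RNAs at 64 to 238 bases spread on either side of its short end. Between the controls the line stays between -0.08 and 0.15 and the members lie between -0.38 and 0.74.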

How the data were processed

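For each substrate, 1 table of raw counts by gene symbol from 1 RNA-seq library was deposited, without normalization. The labels' processing notes name TopHat and edgeR and the builds mm10 and hg19, and the annotation and counting rule are not given in the sources used here. Lines that share a symbol were summed (23282 lines, 35 symbols on more than 1 line, 23238 symbols). Counts were scaled to CPM with TMM factors of edgeR 4.0.16 in R 4.3.3 (1.02, 1.04 and 0.943 in the order TCP, GelMA and GelMA-PSS, with total counts of 119799095, 87071144 and 192171443). Symbols that reached a CPM of 1 in any library were tested, with log2(CPM + 1) as the scale of all ratios. Calls required over 2-fold, the limit stated in the methods, relative to GelMA and to TCP alike. With 1 library per group no test was possible. Intervals are exact Poisson or conditional binomial intervals at 95% (scipy 1.17.1), and they cover counting error only. Steps were run in Python 3.11.15 with numpy 2.4.6, pandas 2.3.3 and statsmodels 0.14.6 (loess with a span of 0.3), and tested on simulated data.

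Positions, hosts, lengths and sequences were matched by symbol to GENCODE vM21 (GRCm38), with lengths for 22844 of 23238 symbols, from 1 transcript per gene with the longest coding sequence in the basic set. The text names, per class, the 5 members with the highest CPM, the 3 largest increases and decreases against the nearer control, every called member, the small RNAs inside hosts so named, and called genes of the lists. Others were named after their values were seen. A gene, the small RNAs inside it, and the results that need them are not reported here. The members and lists were chosen with earlier results of these data known. Alternatives covered the fold, the pseudocount, the filter, the scaling, repeated lines and length.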

Additional observations from a re-analysis of the deposited data

How the results depend on the processing

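No paired analysis was possible because each substrate has 1 library. Of the 14 members higher than both controls, the count was 48 at 1.5-fold, 9 with library totals only, 7 without small RNAs inside ribosomal protein genes and 0 after the length correction, which also gave 2 members lower in place of 0. Over all genes, 180 were higher and 153 lower, and these were 97 and 261 with library totals only, 64 and 90 after the length correction, 1064 and 946 at 1.5-fold and 236 and 241 with a pseudocount of 0.25 CPM. Without scaling factors the median of all genes moved by -0.13 on the log2 scale for GelMA-PSS against GelMA.

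In the order GelMA-PSS against GelMA and against TCP, the length correction took the medians of box H/ACA RNAs to -0.10 and 0.0035, of box C/D RNAs to -0.044 and 0.021 and of host transcripts to 0.19 and 0.37. Without the small RNAs of ribosomal protein genes, chosen after the data were seen, they were 0.24 and 0.12 for box H/ACA RNAs and 0.32 and 0.24 for box C/D RNAs. A filter at a CPM of 5 gave 0.77 and 0.83 for box H/ACA RNAs and 0.81 and 0.93 for box C/D RNAs. Without a filter, box H/ACA RNAs were at 0.32 and 0.44 and box C/D RNAs at 0.44 against TCP, and host transcripts at 0.053 for GelMA against TCP. Library totals only gave 0.38 for box H/ACA RNAs against GelMA and 0.49 and 0.75 for host transcripts, and a pseudocount of 0.25 CPM gave 0.79 for box H/ACA RNAs against TCP. For GelMA against TCP, the box H/ACA median of -0.00 became 0.034 with library totals only and 0.032 without a filter. The cause of these shifts was not tested beyond what each alternative changes by its own construction. Leaving out the members that overlap a host exon, also chosen after the data were seen, median-of-ratios factors and repeated lines kept apart changed no result by more than the counting error or 1.5-fold. What limits all results is the single library per substrate, which sequencing depth cannot replace.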
